A study of Mus musculus with 4 samples.

Results

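Near the centromeric ends of the mouse autosomes lie 1950 of the 23946 H3K27ac regions in the list shared by all libraries (8.36% of the 23339 autosomal ones). They were chosen by position alone: a region on chromosomes 1 to 19 of build mm9 belongs here when its end lies below 13 Mb, which is the first 10 Mb after the unsequenced 3 Mb at the start of each chromosome. The measurements come from MC1-ZE7 cells, a feeder-free mouse embryonic stem (ES) cell line of strain 129S6/SvEvTac grown in serum with leukemia inhibitory factor, in which the green fluorescent protein Emerald reports Zscan4 expression. Cells were sorted by flow cytometry into an Emerald-negative group (Zscan4-) and the bright Emerald-positive group (Zscan4+), both from the same untreated line, and H3K27ac was profiled by chromatin immunoprecipitation and sequencing in 2 libraries of each group. Which promoter drives Emerald, and whether the replicates were separate cultures, is not given in the sources used here. The p-values therefore reflect the spread of these libraries alone. Replicate 2 was prepared by a different protocol, and the main fit did not pair the libraries by replicate, so part of this spread may be technical. Files of this kind hold no expression values, so the sorted cell state could not be checked against marker genes.

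Mouse chromosomes are telocentric: the centromere sits at one tip, next to long arrays of satellite repeats that are normally packed as heterochromatin, and the sequenced part of each chromosome begins beside them. H3K27ac, acetylation of lysine 27 on histone H3, marks active promoters and enhancers and is therefore usually found away from such heterochromatin. The Zscan4 genes encode zinc-finger proteins and are expressed in the 2-cell embryo and, for short periods, in a small part of an ES cell culture, where the family is known for its role in telomere maintenance. The Zscan4 genes themselves form a cluster on chromosome 7, and RefSeq (GRCm38.p6) lists 6 genes and 3 pseudogenes of the name there.

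Sequencing depth, recovered from the deposited RPKM (reads scaled to the length of the region and to the reads of the library), was 9939430 and 17761542 reads in Zscan4- replicates 1 and 2. In Zscan4+ replicates 1 and 2 it was 18283505 and 15920177 reads. The median region near the centromeric end held 55 and 104 reads in the former and 80 and 100 in the latter. Over all listed regions, the share of reads in regions was 16.74% and 17.88% in Zscan4- and 12.97% and 19.14% in Zscan4+ replicates 1 and 2, so the Zscan4+ replicates lay apart from each other on either side of the Zscan4- libraries. Where no read was counted, up to 3 reads remain possible, or 0.155 to 0.285 RPKM depending on the library at this set's median width. That floor and the counting intervals below cover counting error only, because PCR copies of one molecule are counted as separate reads. Regions are printed by their deposited names and mm9 positions. No mm9 annotation was used here, so no gene, exon or intron was assigned to them.

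The listed regions near the centromeric ends had median H3K27ac levels close to those of the other autosomal regions in both cell states. The median region there had 4.8 and 5.04 RPKM in Zscan4- replicates 1 and 2, where the other autosomal regions had 4.77 and 5.09 RPKM. In Zscan4+ replicates 1 and 2 it had 3.89 and 5.39 RPKM, while the others had 3.79 and 5.5 RPKM. Both medians thus moved together from library to library, and the difference between them stayed within 0.03 on the log2 scale in each library. The upper quartile lay higher near the centromeric end in each library. It was 8.67 and 9.08 RPKM against 7.88 and 8.59 in Zscan4- replicates 1 and 2. In Zscan4+ replicates 1 and 2 it was 7.25 and 10.47 RPKM against 6.13 and 9.14. The regions near the centromeric end held 8.1% and 7.95% of all reads in listed regions in Zscan4- replicates 1 and 2 and 8.37% and 8.17% in Zscan4+ replicates 1 and 2. Their median width was 1060.5 bp, with a range of 214 to 4589 bp, against 1116 bp for the other autosomal regions. They lay at 10.3 regions per Mb, against 9.6 per Mb from 13 Mb to the last listed region of each autosome and 11.4 per Mb in the last 10 Mb before it.

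Between Zscan4- and Zscan4+ cells, the median region near the centromeric end shifted about as much as the rest of the autosomes. Its log2 difference, Zscan4+ minus Zscan4- on the log2(RPKM + 0.5) scale, was -0.15, and that of the other autosomal regions was -0.17. By replicate the medians were -0.35 and 0.07 near the centromeric end and -0.38 and 0.05 elsewhere, so the difference between the sets was 0.02 in each replicate while the replicates themselves differed in sign. Over all libraries the difference between the sets was 0.021, and 0.063 and 0.057 with the window ending at 8 and 23 Mb. The median over all listed regions was -0.17 as deposited and -0.04 after quantile normalization. No test of this difference was made, since the smallest two-sided p of an exact permutation over 2 and 2 libraries is 0.333.

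Single regions did change. By limma, at a Benjamini-Hochberg adjusted p of at most 0.05 over all 23946 regions, 158 of the 1950 regions near the centromeric end (8.1%) were higher in Zscan4+ cells, beside a background of 8.01% of all listed regions and 8.05% of the other autosomal ones. This share lies at the background. Lower calls numbered 90 (4.62%), beside 6.82% of all listed regions and 7.12% of the other autosomal ones. The last 10 Mb of the autosomes, at the opposite end, had 7.08% higher and 11.4% lower calls, so lower calls were least frequent near the centromere and most frequent near the far end. On 15 of the 19 autosomes the share of lower calls was smaller near the centromeric end than on the rest of the same chromosome. Neighbouring regions are not independent, and the difference in shares was not tested.

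**Figure D1:**
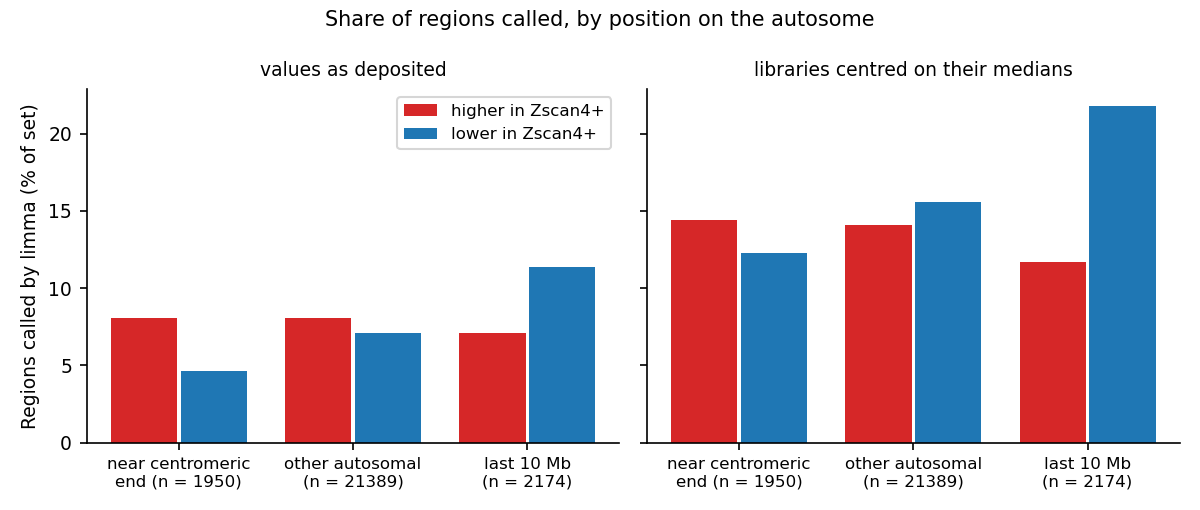
Share of regions called higher (red) or lower (blue) in Zscan4+ cells (limma, adjusted p not above 0.05), in percent of each set, with values as deposited (left) and with each library centred on its median (right). "Other autosomal" includes the last 10 Mb. Lower calls make up 4.62% near the centromeric end, 7.12% of the other autosomal regions and 11.4% of the last 10 Mb on the left, and 12.3%, 15.6% and 21.8% on the right.

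The counts depended on the scaling of the libraries and on single libraries. With every library centred on its own median, 281 regions near the centromeric end were called higher and 240 lower, which is 14.4% and 12.3%, beside 14.1% and 15.6% of the other autosomal regions. With the replicate number as a block, 185 were higher and 156 lower (9.49% and 8.0%, beside 9.39% and 11.3%), and with the block and median centring together 412 were higher and 424 lower (21.1% and 21.7%, beside 20.6% and 25.0%), so that higher calls no longer outnumbered lower ones. Leaving out 1 library shifted the calls in both sets. The median log2 difference near the centromeric end was -0.2 and -0.1 without Zscan4- replicates 1 and 2, against -0.22 and -0.12 elsewhere on the autosomes. Without Zscan4+ replicates 1 and 2 it was 0.09 and -0.39, against 0.09 and -0.43. The share of lower calls hardly differed between the sets without either Zscan4- library. It stayed smaller near the centromeric end without either Zscan4+ library.

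The rises were larger than the falls. Regions called higher near the centromeric end differed by a median of 2.04 (log2), and the median of all 158 went from 0.77 and 0.78 RPKM in Zscan4- replicates 1 and 2 to 3.94 and 5.14 RPKM in Zscan4+ replicates 1 and 2. A rise of 4-fold or more on the log2(RPKM + 0.5) scale was called in 82 regions (4.21%), beside 3.86% of all listed regions and 3.87% of the other autosomal ones. Regions called lower had a median log2 difference of -1.17 and went from 4.88 and 4.94 RPKM to 1.53 and 2.38 RPKM. Only 1 of them, R09127 on chromosome 17, fell by 4-fold or more in this fit, beside 0.0668% of all listed regions and 0.0701% of the other autosomal ones. This count depends on the scale. With quantile normalization, R05334, R06450, R08349, R09150, R11114 and R14737, described below, also passed 4-fold, at log2 differences of -2.5 to -2.04. With voom on recovered reads R05334, R06450, R08349 and R09150 did, at -2.4 to -2.06. Counted without a model, both Zscan4+ libraries lay above both Zscan4- libraries in 390 regions (20.0%, beside 18.6% of all listed regions and 18.4% of the other autosomal ones) and below both in 659 (33.8%, beside 35.1% and 35.5%).

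**Figure D2:**
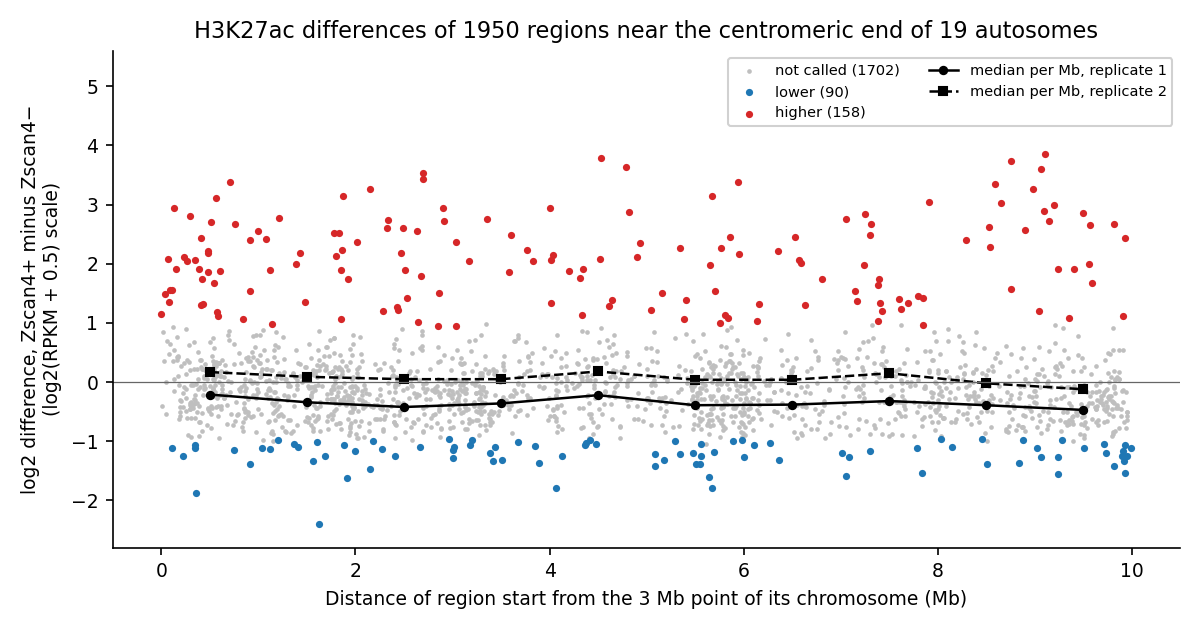
Log2 difference of each of the 1950 regions (vertical, log2(RPKM + 0.5) scale, Zscan4+ minus Zscan4-) against the distance of its start from the 3 Mb point of its chromosome (horizontal, Mb). Red points are the 158 regions called higher, blue points the 90 called lower, and grey points the rest. Black lines are the medians per Mb in replicate 1 (solid) and replicate 2 (dashed), which stay between -0.47 and 0.18.

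Along the window the medians were flat, and with all libraries the first Mb held the most higher calls. Of the 254 regions that start between 3 and 4 Mb, 32 (12.6%) were higher and 7 (2.76%) lower, with median log2 differences of -0.21 in replicate 1 and 0.17 in replicate 2. Both counts shifted when a single library was left out, as the calls did on the other autosomal regions. Without either Zscan4- library, fewer regions were called in each direction in both sets. Without Zscan4+ replicate 1, higher calls rose and lower calls fell in number in both sets. Without Zscan4+ replicate 2, lower calls outnumbered higher ones in both sets. With median centring, 53 of the 254 were higher and 17 lower, beside 14.1% and 15.6% of the other autosomal regions. With the replicate block and median centring, 76 were higher and 36 lower, beside 20.6% and 25.0%. The bin from 10 to 11 Mb matched the first, with 19 of 151 regions (12.6%) higher. In the other 8 bins the share of higher calls ran from 4.21% of 190 regions between 6 and 7 Mb to 10.5% of 153 between 7 and 8 Mb. The last bin, from 12 to 13 Mb, had 16 higher and 16 lower calls among 206 regions and the lowest medians, -0.47 and -0.12 in replicates 1 and 2. Just across the limit of the window the values did not continue that dip. Regions that end between 12 and 13 Mb had a median log2 difference of -0.32 (207 regions), and those that end between 13 and 14 Mb had -0.06 (182 regions), with 14 higher and 7 lower calls. Further out, 8 of 130 regions (6.15%) were higher between 14 and 15 Mb. Between 15 and 16 Mb 15 of 95 (15.8%) were, so the share in the first Mb was also exceeded outside the window.

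The listed region nearest the unsequenced start was looked at on each autosome, whatever its values. Of these 19 regions, 7 were called higher in Zscan4+ cells and 2 lower, which is 36.8% and 10.5%, beside 8.01% and 6.82% of all listed regions. In 11 of the 19, both Zscan4+ libraries lay above both Zscan4- libraries, as in 18.6% of all listed regions. Their medians were 3.15 and 2.48 RPKM in Zscan4- replicates 1 and 2 and 3.7 and 5.0 RPKM in Zscan4+ replicates 1 and 2, so their level in Zscan4- cells lay below the median of the list. At the other end, 0 of the 19 last listed regions of the autosomes were called in either direction by limma (1 higher and 0 lower at an unadjusted p below 0.05), and in 1 of them both Zscan4+ libraries were above both Zscan4- libraries. Of these, 2 were called higher with median centring and 2 with quantile normalization, beside 14.1% and 13.8% of the other autosomal regions. With the replicate block and median centring 4 were, beside 20.6%. Some were also called when a Zscan4+ library was left out. Going inwards from the start, higher calls made up 24.6% of the first 3 regions of each autosome (14 of 57), 15.8% of regions 4 to 6 (9 of 57), 11.8% of regions 7 to 10 (9 of 76), 3.68% of regions 11 to 20 (7 of 190) and 6.84% of regions 21 to 50 (39 of 570). Inwards from the far end the same steps gave 8.77%, 10.5%, 7.89%, 11.6% and 5.96%. The 14 of 57 became 23 with median centring and 26 with the replicate block and median centring, beside 14.1% and 20.6% of the other autosomal regions. Fewer of the 57 were called higher without either Zscan4- library, and more without either Zscan4+ library. This ordering by rank was chosen after the values had been seen, and its difference from the other regions was not tested. Among the 19 nearest the start, 11 were called higher with median centring, 12 with quantile normalization, 9 with the replicate block, 13 with the block and median centring, 5 without Zscan4- replicate 1, 3 without Zscan4- replicate 2, 8 without Zscan4+ replicate 1 and 9 without Zscan4+ replicate 2.

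R07352 on chromosome 15 (3134884 to 3135384) had the largest rise among these first regions. It had 0.2 and 0 RPKM in Zscan4- replicates 1 and 2, a single read in all, and 3.17 and 5.15 RPKM in Zscan4+ replicates 1 and 2. The log2 difference was 2.94 ± 0.39 (standard error; limma adjusted p = 7e-12). R06447 on chromosome 14 (6036216 to 6036845) had 1.6 and 0.98 RPKM in Zscan4- and 7.74 and 9.39 RPKM in Zscan4+ replicates 1 and 2, a log2 difference of 2.36. It is the first listed region of its chromosome, and no region was listed there in the first 3 Mb of the window.

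R13472 on chromosome 3 (3348348 to 3349983) rose from 1.42 and 0.96 RPKM to 5.18 and 8.03 RPKM, a log2 difference of 2.06. R08310 on chromosome 16 (3264432 to 3265930) rose from 0.47 and 0.56 RPKM to 3.4 and 4.03 RPKM, a log2 difference of 2.05. In these 4 regions the groups did not overlap, and the Zscan4+ libraries reached ordinary levels of the list. The other 3 that rose were R18928 on chromosome 7, R05333 on chromosome 13 and R10253 on chromosome 18, at log2 differences of 1.56, 1.49 and 1.15. R10253, R05333, R20504 and R01409 were not called without either of the Zscan4- libraries, R20504 and R01409 also not without Zscan4+ replicate 1, and R13472 and R18928 not without Zscan4- replicate 2 (limma adjusted p = 0.055 or more for each).

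The first regions of chromosomes 8 and 10 were the 2 that fell. R20504 (chromosome 8, 3221045 to 3222201) had 5.48 and 4.72 RPKM in Zscan4- and 1.28 and 2.66 RPKM in Zscan4+ replicates 1 and 2, a log2 difference of -1.24. R01409 (chromosome 10, 3112006 to 3112808) had 4.39 and 2.25 RPKM in Zscan4- and 1.16 and 1.25 RPKM in Zscan4+ replicates 1 and 2, a log2 difference of -1.11. The first region of chromosome 11, R02651 (3023741 to 3023991), stood out by level. It had 25.35 and 27.02 RPKM in Zscan4- and 26.91 and 42.21 RPKM in Zscan4+ replicates 1 and 2, with a log2 difference of 0.36 ± 0.42 (standard error) and a limma adjusted p of 0.65. It was called higher with quantile normalization (log2 difference 0.57, limma adjusted p = 0.032) and with the replicate block and median centring together (0.46, limma adjusted p = 0.026).

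**Figure D3:**
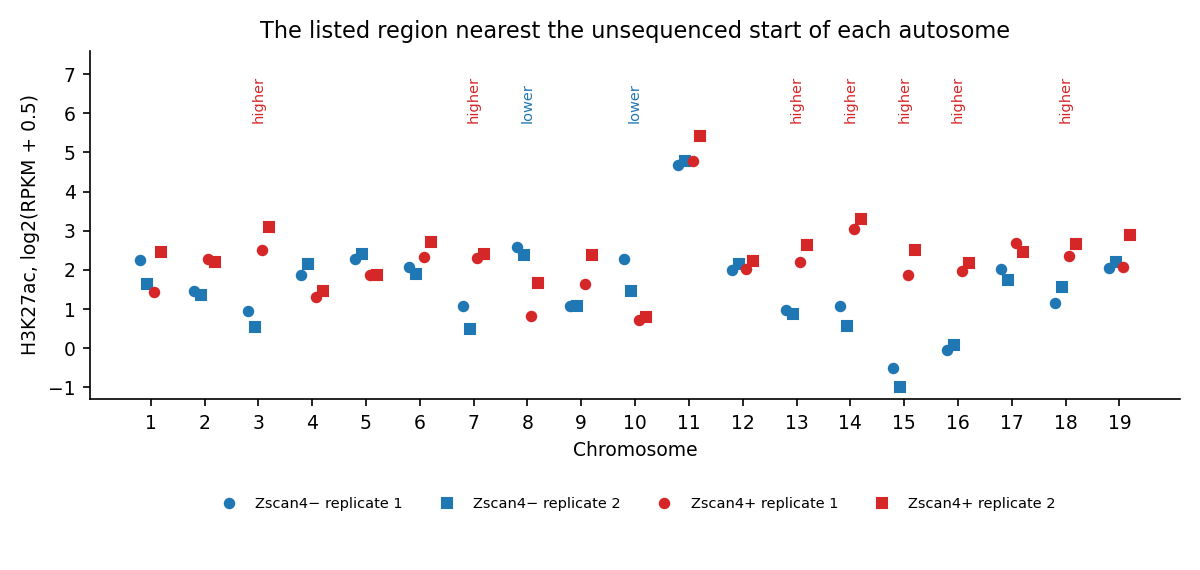
H3K27ac level, as log2(RPKM + 0.5), of the listed region nearest the unsequenced start of each autosome (horizontal: chromosome). Blue marks are the Zscan4- and red marks the Zscan4+ libraries, circles replicate 1 and squares replicate 2, and a word above a chromosome gives the limma call. Red lies above blue in the 7 regions called higher, and chromosome 11 stands above all others in all 4 libraries.

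Chromosome 7 held a group of large rises near its centromeric end. The 10 consecutive listed regions R19018 to R19027 lie between 11590211 and 12502017, a stretch of 911.8 kb, and 9 of them were called higher in Zscan4+ cells at log2 differences of 2.57 to 3.74 (limma adjusted p of at most 1.4e-08). The Zscan4 gene cluster is known to lie near this end of chromosome 7. Which region belongs to which gene was not assigned, and since the Zscan4 genes are closely similar copies, reads could match several of them; how the authors placed such reads is not given in the sources used here. No region was listed in the 4336.8 kb before R19018. The regions R19018 to R19022 were taken by position, and R19023 as one of the 10 largest rises. The others of the stretch were added after their values had been seen. The limits of the stretch and the share called in it thus follow in part from this choice.

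The 9 regions were close to empty in Zscan4- cells. Together they held 15 and 15 reads in Zscan4- replicates 1 and 2 and 912 and 931 reads in Zscan4+ replicates 1 and 2. No Zscan4- library was above 0.61 RPKM in any of them, and no Zscan4+ library was below 2.43 RPKM. Of the 4 regions near the centromeric ends with 0 reads in both Zscan4- libraries, 3 were in this stretch, and the whole list held 16 such regions. A region nearly without Zscan4- reads gives little by which the Zscan4- libraries could have placed it in the list. Its higher level in Zscan4+ cells and its adjusted p may thus follow from the listing. This applies to every region named here that was close to empty in Zscan4- cells. How regions were called is not given in the sources used here.

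R19020 (11751082 to 11753061) was the strongest of the stretch, with 0.61 and 0.23 RPKM in Zscan4- and 11.22 and 11.78 RPKM in Zscan4+ replicates 1 and 2. Its pooled reads were 20 and 777, which scaled to the library totals is a ratio of 31.5 (exact 95% counting interval 20.2 to 51.8). R19023 (12062395 to 12063341) followed in level, with 0 and 0.06 RPKM in Zscan4- and 5.84 and 6.11 RPKM in Zscan4+ replicates 1 and 2. With 1 read against 193 its ratio was 156, with an exact interval of 27.7 to 6205.

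R19018 (11590211 to 11590840) had no read in either Zscan4- library and 4.61 and 4.49 RPKM in Zscan4+ replicates 1 and 2. Against the floor of 3 reads over the Zscan4- group it was at least 26.5-fold higher, and the lower limit of the exact 95% interval, which also covers counting error in the Zscan4+ reads, was 21.1. R19024 (12098964 to 12099959) and R19025 (12194036 to 12194696) also had no Zscan4- read and were at least 29.4-fold and 21.3-fold higher on the same floor, with exact lower limits of 23.5 and 16.9. R19022 (11982347 to 11983128) had 0.13 and 0 RPKM in Zscan4- and 4.27 and 5.55 RPKM in Zscan4+ replicates 1 and 2. R19019 (11654892 to 11656156), R19021 (11895624 to 11897135) and R19027 (12500978 to 12502017) had 2, 2 and 4 reads in the pooled Zscan4- libraries and 170, 138 and 149 in the pooled Zscan4+ libraries. Groups were thus far apart in every one of the 9, which may follow from the listing, as said above. The Zscan4+ replicates lay close together in R19018, R19020 and R19023 and less so in others, such as R19025 with 2.73 and 4.38 RPKM and R19019 with 3.16 and 4.82 RPKM.

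The exception inside the stretch was R19026 (12398634 to 12400017), which had 3.06 and 3.7 RPKM in Zscan4- and 3.04 and 3.41 RPKM in Zscan4+ replicates 1 and 2. Its log2 difference was -0.06 ± 0.35 (standard error). The next listed region, R19028 (12789261 to 12789489), had 4.41 and 3.7 RPKM in Zscan4- and 3.36 and 5.51 RPKM in Zscan4+ replicates 1 and 2, so its groups overlapped too. All 9 regions were called higher with the replicate block, with median centring, with quantile normalization and without each library in turn; with a minimum of 2 RPKM only 6 of them were tested, and all 6 were called. Outside the stretch, 7 of the 91 other chromosome 7 regions near the centromeric end were called higher (7.69%), which lies near the background of 8.01%. Without chromosome 7 altogether, 142 of 1849 regions (7.68%) were higher and 88 (4.76%) lower.

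**Figure D4:**
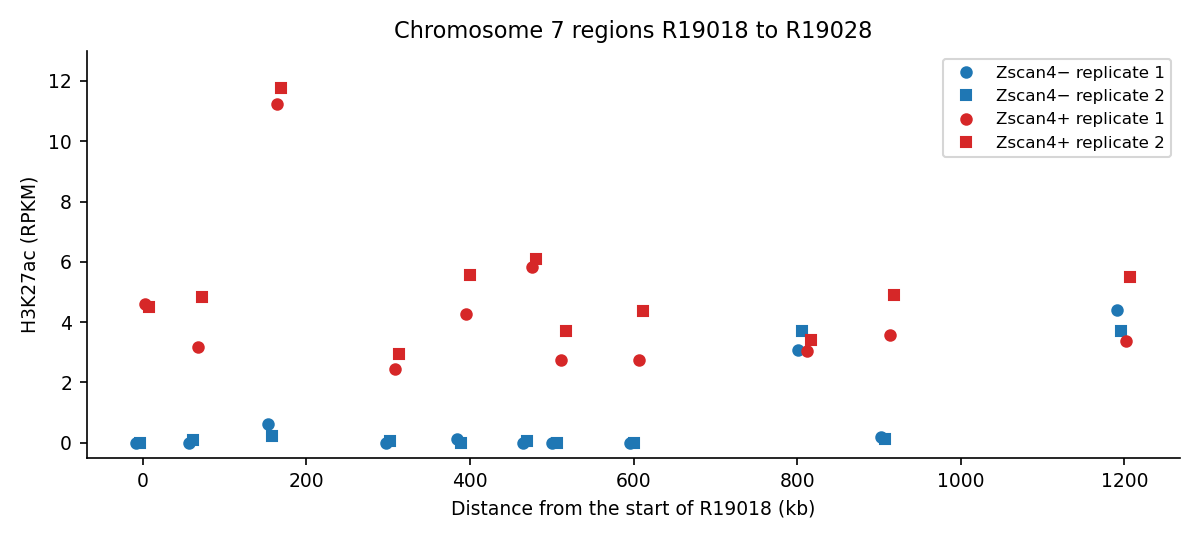
H3K27ac in RPKM (vertical) of the regions R19018 to R19028 on chromosome 7, against the distance from the start of R19018 in kb (horizontal). Blue marks are the Zscan4- and red marks the Zscan4+ libraries, circles replicate 1 and squares replicate 2, set slightly apart sideways. In 9 of the 11 regions the blue marks lie at or below 0.61 RPKM and the red ones at 2.43 RPKM or above; in R19026 and R19028 all libraries lie between 3.04 and 5.51 RPKM.

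Of the 10 regions with the largest rise near the centromeric ends on the log2(RPKM + 0.5) scale, 3 were in this stretch and 7 lay on 5 other chromosomes. That division depends on the scale. With voom on recovered reads, R19018 to R19023 of the stretch had log2 differences of 4.96 to 6.44. The 7 regions outside it then reached at most 4.79, at R11719. R20605 on chromosome 8 (12105399 to 12105659) led the 10 on the log2(RPKM + 0.5) scale, with 0.77 and 0.65 RPKM in Zscan4- and 14.72 and 19.33 RPKM in Zscan4+ replicates 1 and 2. The log2 difference was 3.85 ± 0.35 (standard error; limma adjusted p = 1.7e-24), and the pooled reads were 5 and 150, a scaled ratio of 24.3 (exact 95% counting interval 10.2 to 75.9). It did not lead on every scale: with a pseudocount of 0.1 its log2 difference was 4.39, below 5.6 at R11719 and 5.21 at R01467, and with voom on recovered reads it was 4.32, below 4.79 and 4.78. R20573, also on chromosome 8 (8938826 to 8939075), had 3.64 and 0.45 RPKM in Zscan4- and 19.11 and 21.44 RPKM in Zscan4+ replicates 1 and 2. Its Zscan4- replicates differed widely, and without Zscan4- replicate 2 its log2 difference was 2.32 in place of 3.39 (limma adjusted p = 0.063).

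R22131 on chromosome 9 (7786304 to 7786554) had 0.4 and 2.03 RPKM in Zscan4- and 12.25 and 27.14 RPKM in Zscan4+ replicates 1 and 2, a log2 difference of 3.64. The Zscan4+ replicates were further apart here than in the other large rises. On chromosome 15 a pair of neighbours rose together. R07375 (5696272 to 5696505) went from 0.43 and 0.72 RPKM to 9.86 and 14.02 RPKM, a log2 difference of 3.53. R07376 (5697085 to 5697386) went from 0.33 and 0.37 RPKM to 7.45 and 10.02 RPKM, a log2 difference of 3.43.

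R11719 on chromosome 2 (3709260 to 3709474) had no read in either Zscan4- library, 3.83 and 5.87 RPKM in Zscan4+ replicates 1 and 2, and was at least 9.45-fold higher against the floor of 3 reads over the group (exact lower limit 7.29). R01467 on chromosome 10 (7532204 to 7532484) had 0 and 0.6 RPKM in Zscan4- and 9.96 and 9.42 RPKM in Zscan4+ replicates 1 and 2, a log2 difference of 3.78, and its scaled ratio of pooled reads, 25.1 (exact 95% counting interval 8.33 to 124), overlapped that of R20605. It closes a run of 4 listed regions within 20.7 kb, all with a positive log2 difference. In that run R01465 (7514906 to 7517162) also rose, from 0.8 and 0.3 RPKM to 3.42 and 4.26 RPKM, while R01464 (7511822 to 7513761), the region with the most H3K27ac in Zscan4- cells, had 4.15 and 4.99 RPKM in Zscan4- and 6.26 and 9.01 RPKM in Zscan4+ replicates 1 and 2 (log2 difference 0.67, limma adjusted p = 0.23).

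The largest fall near a centromeric end was at R09127 on chromosome 17 (4626258 to 4626811). It had 15.46 and 11.71 RPKM in Zscan4- and 1.38 and 3.29 RPKM in Zscan4+ replicates 1 and 2, a log2 difference of -2.39 ± 0.36 (standard error; limma adjusted p = 1.6e-09). Zscan4- libraries gave 200 reads there and Zscan4+ libraries 43, which scaled to the library totals is 5.74 times more in Zscan4- cells (exact 95% counting interval 4.11 to 8.18). Chromosome 17 held 2 more of the 10 largest falls. R09187 (12238880 to 12239209) was the strongest of the 10 in Zscan4- cells, with 27.22 and 36.62 RPKM against 6.65 and 16.04 RPKM in Zscan4+ replicates 1 and 2, and R09150 (7065735 to 7065969) had 5.16 and 5.05 RPKM against 0.93 and 1.34 RPKM.

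R05334 on chromosome 13 (3358309 to 3359613) had 4.78 and 5.53 RPKM in Zscan4- and 0.88 and 1.2 RPKM in Zscan4+ replicates 1 and 2, a log2 difference of -1.88. Within 58.5 kb of its start, 2 regions moved the other way. R05336 (3405255 to 3406038) rose from 1.8 and 1.51 RPKM to 3.91 and 5.94 RPKM, and R05337 (3415949 to 3416784) rose from 1.2 and 0.74 RPKM to 4.19 and 4.51 RPKM. Regions within 58.5 kb of each other thus changed in opposite directions.

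The other 6 of the 10 largest falls were R06450 on chromosome 14, R08349 on chromosome 16, R11114 and R11157 on chromosome 19, R14737 on chromosome 4 and R04539 on chromosome 12, at log2 differences of -1.79 to -1.53. R06450, R09150, R11114 and R14737 had only 8, 9, 11 and 11 reads in both Zscan4+ libraries together, and the size of their falls rests on these few reads. R04539, R09187 and R11157 were not called without either of the Zscan4- libraries, R14737 not without Zscan4- replicate 1, R08349 and R11114 not without Zscan4- replicate 2, and R06450 not without Zscan4- replicate 2 or Zscan4+ replicate 1 (limma adjusted p = 0.053 or more for each). The median standard error was 0.65 and 0.64 in the fits without Zscan4- replicates 1 and 2, against 0.36 with all libraries.

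Runs of lower regions were found at 2 places, by chaining regions at gaps of at most 50 kb. One, on chromosome 12 between 12892450 and 12995152, held 10 listed regions, of which 5 fell and 1 rose. The run as a whole had a mean of 12.63 and 14.12 RPKM in Zscan4- and 6.91 and 10.32 RPKM in Zscan4+ replicates 1 and 2. Its strongest regions were not called: R04540 (12934523 to 12934782) had 45.84 and 45.0 RPKM in Zscan4- and 23.44 and 29.83 RPKM in Zscan4+ replicates 1 and 2 (log2 difference -0.77, limma adjusted p = 0.23). The region that rose, R04537 (12909095 to 12909309), had 6.11 and 5.0 RPKM in Zscan4- and 10.22 and 15.56 RPKM in Zscan4+ replicates 1 and 2, and lies between regions that fell.

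The other, on chromosome 19 between 9973197 and 10088273, held 5 listed regions, of which 3 fell. R11157 (10052411 to 10054121) was the strongest of them, with 13.18 and 17.65 RPKM in Zscan4- and 3.39 and 6.54 RPKM in Zscan4+ replicates 1 and 2. The neighbour R11158 (10056309 to 10057935) had 9.47 and 12.05 RPKM in Zscan4- and 4.04 and 9.16 RPKM in Zscan4+ replicates 1 and 2 and was not called. Besides chromosome 10 and chromosome 13, chromosome 8 had a run with 2 of 4 regions higher, from 4431637 to 4512700, in which R20535 (4431637 to 4432789) rose from 0.35 and 0.39 RPKM to 2.9 and 4.14 RPKM.

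The autosomes differed in how their centromeric end compared with the rest. The number of listed regions in the window ran from 50 on chromosome 14 to 249 on chromosome 19, which is 24.9 per Mb against 10.4 per Mb on the rest of chromosome 19. In 11 of the 19 autosomes the median difference was above that of the rest of the chromosome in both replicates, and in 7 it was below in both. Chromosome 14 lay lowest against its rest in the fit of all libraries and in replicate 2 but not in replicate 1, with medians of -0.58 and -0.31 in replicates 1 and 2 against -0.37 and 0.05. Chromosome 17 had -0.67 and -0.2 against -0.4 and 0.04, and chromosome 6 had -0.61 and -0.12 against -0.35 and 0.07, so both lay further below their rest than chromosome 14 in replicate 1. Chromosome 9 lay highest in the fit of all libraries, with -0.11 and 0.14 against -0.35 and 0.07.

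**Figure D5:**
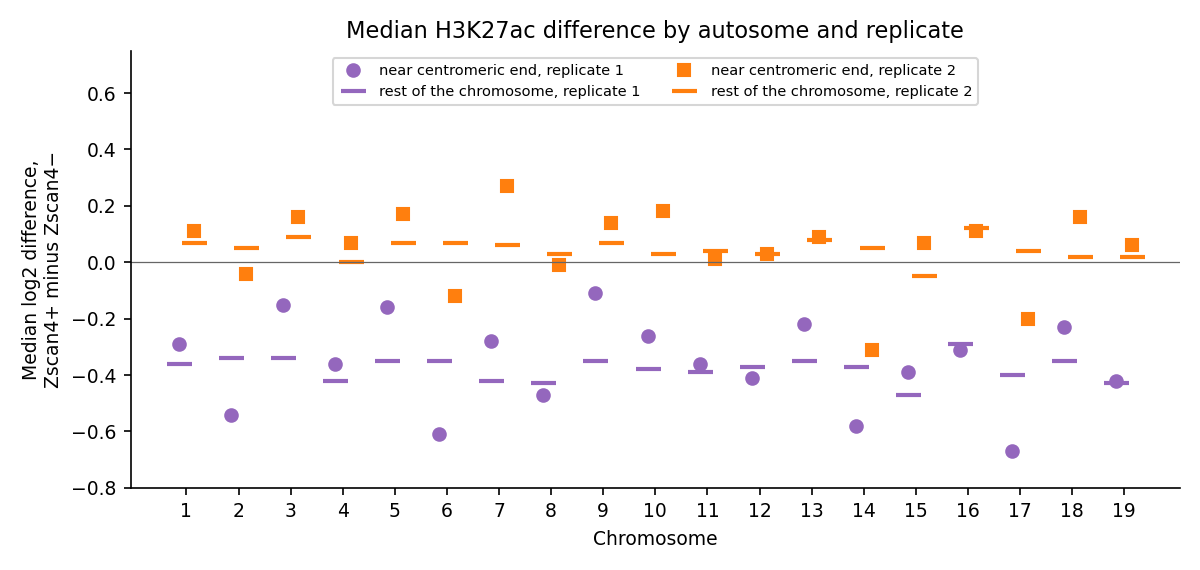
Median log2 difference (Zscan4+ minus Zscan4-, log2(RPKM + 0.5) scale) of the regions near the centromeric end of each autosome (circles replicate 1, squares replicate 2) and of the rest of the same chromosome (short lines in the same colours). Replicate 1 lies below replicate 2 on every chromosome, and chromosomes 6, 14 and 17 lie below their own rest in both replicates.

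Calls did not always go with these medians. Near the centromeric end of chromosome 17, 11 of 80 regions (13.8%) were lower, against 7.77% on its rest, but on chromosome 6 lower calls were 4 of 68 (5.88%), against 6.95% on its rest. Chromosome 12, whose medians lay close to those of its rest, had more calls than its rest in both directions, with 12 higher (12.2% against 9.0%) and 11 lower (11.2% against 6.72%) among 98 regions. Chromosome 9 had 7 higher calls and 0 lower calls by limma among 80 regions (2 lower at an unadjusted p below 0.05), and chromosome 1 had 6 higher and 1 lower call among 99. Chromosome 7 had the largest share of higher calls, 16 of 101 (15.8%), 9 of them in the stretch described above, and chromosome 3 followed with 11 of 79 (13.9%). On chromosome 19, the most crowded, 6 of 249 regions (2.41%) were higher, against 11.0% on its rest, although its medians were 0.01 and 0.04 above those of its rest in replicates 1 and 2, and 19 (7.63%) were lower. Counts per chromosome are small, and these differences were not tested.

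The 5 regions with the highest H3K27ac near the centromeric ends were not called in either direction with all libraries and values as deposited. R02654 on chromosome 11 (3092559 to 3094077) was the strongest, with 57.99 and 54.11 RPKM in Zscan4- and 80.78 and 95.96 RPKM in Zscan4+ replicates 1 and 2. Its groups did not overlap, and its log2 difference was 0.65 ± 0.45 (standard error; limma adjusted p = 0.38). With quantile normalization it was 0.8, and R02654 was then called (limma adjusted p = 0.019), as it was with the replicate block and median centring (0.74, limma adjusted p = 0.023). R02785 (8475123 to 8475374) and R02812 (11709107 to 11709335), also on chromosome 11, had log2 differences of -0.79 and -0.36. R02785 had 63.73 and 64.38 RPKM in Zscan4- and 25.49 and 53.3 RPKM in Zscan4+ replicates 1 and 2, so the size of its change differed between the replicates, and it was called lower without Zscan4+ replicate 2 (limma log2 difference -1.31, adjusted p = 0.0026) and with the replicate block and median centring (-0.69, limma adjusted p = 0.023). R01430 on chromosome 10 (6013400 to 6013731) and R10276 on chromosome 18 (6136406 to 6136690) had -0.36 and 0.01.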

How the data were processed

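Per the file headers the deposited values are RPKM; they carry 2 decimals and cover 1 list of regions shared by all files. Reads were handled with Bowtie and HOMER on mm9, per the submitters' processing notes; the sources used here do not give versions, region calling or the treatment of duplicate and multiply matching reads. Per the labels' protocols, replicate 2 was amplified before a wider size selection, so replicate numbers pair the libraries. Deviations between replicates correlated at 0.35 between groups over all regions and at 0.36 near the centromeric ends. The main fit did not use this pairing. Its median standard error near the centromeric ends was 0.36, against 0.32 with the replicate block.

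RPKM times width fell on whole multiples of 1 step, taken as 1 read: between 97.15% and 99.97% of the values below 50 reads came out whole, within a tolerance of 0.1. The comparison of groups used limma 3.58.1 under R 4.3.3 (variance trend, log2(RPKM + 0.5), mean of at least 0.5 RPKM, which removed no region) on all 23946 regions, with two-sided p-values adjusted by Benjamini-Hochberg. The fit was run on simulated data. Reads were drawn there independently for each region and library, without an effect of the replicate. That simulation therefore cannot show how the unpaired fit behaves with the replicate differences seen here. Summaries used Python 3.11.15 and scipy 1.17.1.

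Named regions are the 10 largest called rises and falls with 1 sign in both replicates, the region nearest the start of each autosome, the 5 with the highest mean RPKM, runs of at least 4 regions at gaps of at most 50 kb with a share of 0.5 or more called in 1 direction, and chromosome 7 from 10 to 12 Mb. Members, lists and tests were chosen with earlier results of these data known. Alternatives were a replicate block, other pseudocounts, minimums, scalings, a variance without trend, a threshold of 0.10, voom on recovered reads, other windows, and leaving out chromosome 7 or each library. No sequence is printed, since the reference tables are on another build.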

Additional observations from a re-analysis of the deposited data

How the results depend on the processing

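Higher calls near the centromeric end (158) numbered 281 with median centring, 274 with quantile normalization, 412 with both the replicate block and median centring, and between 94 and 252 in the fits without one library. The 90 lower calls became 156 with the replicate block alone, 240 with median centring, 218 with quantile normalization, 424 with block and centring, 146 with the threshold set to 0.10, and between 5 and 566 in the fits without one library. With the window at 8 Mb there were 91 higher and 43 lower calls among 1072 regions, and at 23 Mb 303 and 167 among 3641, which follows from the number of regions. The median log2 difference near the centromeric end minus that of the other autosomal regions, 0.021 as reported, was 0.024 with a pseudocount of 0.1, 0.063 and 0.057 with windows at 8 and 23 Mb, 0.013 without chromosome 7, and between 0.003 and 0.036 without one library; for scalings, the block, the pseudocount and chromosome 7 the cause was not tested. The 32 named regions that were called gave 479 values under the other settings, of which 0 reversed, 455 stayed called and 24, all in fits without one library, were no longer called. The 15 named regions that were not called gave 225 values, of which 26 were called, in the same direction. The fits without one library take the single library of its group to vary as the others do. Depth limits values near the floor, where 7 of the 10 largest rises had at most 3 reads in each Zscan4- library.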

Other observations

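Of the 90 regions called lower near the centromeric ends, 16 (17.8%) had another lower call of the same set within 50 kb, against 31.1% of the 1523 lower calls on the rest of the autosomes. For higher calls the shares were 23.4% (37 of 158) and 26.2% (451 of 1721). Lower calls were less frequent near the centromeric ends to begin with, and the difference was not tested. In the first Mb of the window, higher calls were found on 16 of the 18 autosomes with a listed region there, at most 4 on any one of them.

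Near the centromeric ends, 62 regions stayed below 1 RPKM in each Zscan4- library and exceeded 3 RPKM in each Zscan4+ library (3.18%, against 3.28% of the other autosomal regions). The reverse held for 0 regions, against 18 of 21389. Both limits were chosen with earlier results known. If regions were independent, a count of 0 among 1950 would allow a share of up to 0.154%, beside 0.0842% of the other autosomal regions. Neighbouring regions are not independent, so this bound is too narrow, and the difference was not tested.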
